A study of Homo sapiens with 9 samples.

Results

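Tight junctions and desmosomes are the contacts that hold epithelial cells to one another, and their genes were read here in MDA-MB-231, a human breast cancer line of the mesenchymal kind called claudin-low. The group of 9 genes was set by name: the claudins CLDN1, CLDN3, CLDN4 and CLDN7, the tight junction scaffold TJP1, the junctional adhesion molecule F11R, and the desmosome genes DSP, JUP and DSG2. Every probe set (a group of short array probes that reads 1 transcript) whose only annotated symbol was one of these was taken. This gave 10 probe sets of 8 genes, out of 22215 probe sets and 11963 genes tested. No probe set carried the symbol F11R in the annotation used here, so F11R was not analysed.

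All lines carried a stably integrated pLKO lentivirus. It expressed a scramble hairpin as the control, or one of 2 hairpins that target Coco: shco2 (shRNA #2) or shco4 (shRNA #4). Coco, the product of DAND5, is a secreted antagonist of BMP, Nodal and activin ligands; it was not analysed here because no probe set bore its symbol, so the degree of knockdown is unknown. Each of the 3 groups had 3 biological replicates, 1 Affymetrix 3′ array each, from cells grown in DMEM with 10% fetal bovine serum, and each hairpin is represented by 1 transduced line, with clone or pool not stated. The number of arrays limits the precision, and p-values measure only the spread between these arrays.

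As background, a tight junction seals the space between epithelial cells: claudins are the membrane proteins that form its strands, and TJP1 (ZO-1) anchors those strands to actin. A desmosome is a rivet for intermediate filaments: cadherins such as DSG2 (desmoglein) bridge the cells, JUP (plakoglobin) binds their tails, and DSP (desmoplakin) ties the plaque to keratin filaments. Claudin-low tumours and lines are named for low CLDN3, CLDN4 and CLDN7 messages together with mesenchymal genes, and the SNAI and ZEB transcription factors repress many epithelial junction genes through E-box elements.

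The 4 members that were lower with shco2 than with scramble were CLDN4, CLDN7, JUP and DSG2, and their promoters are shown because the SNAI and ZEB factors that act on such genes were measured too (described with the regulators). Each sequence is the 250 bases before an annotated transcription start, 5′ to 3′ on the gene's strand, from RefSeq on GRCh38.p14. Capitals mark the E-box CACCTG or its reverse complement CAGGTG. CLDN7 and JUP have 2 annotated starts each, and both are given, the upstream one first.
CLDN4 (chr7:73830746-73830995, plus strand): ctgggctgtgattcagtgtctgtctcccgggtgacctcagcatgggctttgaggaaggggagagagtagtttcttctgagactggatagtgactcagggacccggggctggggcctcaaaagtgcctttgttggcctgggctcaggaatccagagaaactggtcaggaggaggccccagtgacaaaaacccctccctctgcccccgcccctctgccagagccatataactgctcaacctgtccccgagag
CLDN7 upstream start (chr17:7263214-7263463, minus strand): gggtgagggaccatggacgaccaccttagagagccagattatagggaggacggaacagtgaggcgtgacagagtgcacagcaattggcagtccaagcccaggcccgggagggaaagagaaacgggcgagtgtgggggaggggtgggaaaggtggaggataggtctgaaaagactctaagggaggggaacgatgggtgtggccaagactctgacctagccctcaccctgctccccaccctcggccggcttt
CLDN7 downstream start (chr17:7262479-7262728, minus strand): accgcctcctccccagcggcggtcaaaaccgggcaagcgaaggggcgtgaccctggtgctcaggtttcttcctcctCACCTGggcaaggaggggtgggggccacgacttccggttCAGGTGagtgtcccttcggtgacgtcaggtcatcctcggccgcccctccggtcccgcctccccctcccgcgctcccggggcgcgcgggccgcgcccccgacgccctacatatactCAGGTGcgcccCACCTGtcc
JUP upstream start (chr17:41786712-41786961, minus strand): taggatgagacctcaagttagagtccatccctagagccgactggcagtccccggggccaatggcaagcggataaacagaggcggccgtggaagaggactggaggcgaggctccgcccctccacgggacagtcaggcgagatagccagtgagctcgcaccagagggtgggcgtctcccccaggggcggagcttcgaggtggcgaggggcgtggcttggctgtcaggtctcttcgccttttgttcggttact
JUP downstream start (chr17:41785977-41786226, minus strand): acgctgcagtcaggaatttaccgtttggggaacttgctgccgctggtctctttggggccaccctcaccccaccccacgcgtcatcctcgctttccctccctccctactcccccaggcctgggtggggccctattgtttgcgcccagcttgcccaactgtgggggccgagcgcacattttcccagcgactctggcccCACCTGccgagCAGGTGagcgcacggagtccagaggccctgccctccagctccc
DSG2 (chr18:31497927-31498176, plus strand): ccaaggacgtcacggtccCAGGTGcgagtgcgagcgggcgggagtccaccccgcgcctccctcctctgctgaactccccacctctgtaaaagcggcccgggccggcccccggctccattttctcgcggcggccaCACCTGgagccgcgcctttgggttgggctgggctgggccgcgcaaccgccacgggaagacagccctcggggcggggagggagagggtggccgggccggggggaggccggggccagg

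The downstream CLDN7 start had 4 matches, beginning at -174, -135, -20 and -9 relative to the start, and none overlapped another. The downstream JUP start had 2, at -54 and -43, and DSG2 had 2, at -232 and -116. CLDN4 and the upstream starts of CLDN7 and JUP had 0. Among the members whose promoters are not printed, DSP had 2 matches, at -178 and -85, TJP1 had 1 at the first of its 4 starts, at -88, and CLDN1 and CLDN3 had 0. Over both strands, 17.5% of the 35116 windows of this length in the table held at least 1 match, 2.53% at least 2 and 0.122% at least 4. A match describes these letters only; binding was not measured.

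In this line 3 of 15 measured claudins were read above background on every array: CLDN4, CLDN7 and CLDN15. The table has no detection calls, so background was set from genes of other tissues: 67 probe sets of 46 genes such as ALB, INS and PRL, whose mean intensities had a 95th percentile of 50.1 and a highest value of 92.9. A gene counted as above background where the lowest of the 9 arrays at one of its probe sets was over 50.1, a rule that 1 of the 46 background genes, SFTPC, also met. Intensities are linear, and the authors' values have nearly the same trimmed mean on every array. They depend on each probe set's affinity, so a level is compared here only with background and with the same probe set on other arrays.

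CLDN4, a claudin of many simple epithelia, had the intensities 761, 528 and 653 in scramble, 346, 315 and 336 with shco2 and 536, 477 and 588 with shco4. CLDN7, a claudin with a junctional and a basolateral pool, read 306, 213 and 356 in scramble, 82.4, 126 and 120.4 with shco2 and 129, 127 and 108 with shco4. CLDN15, a pore-forming claudin of the intestine, read 206, 171 and 204 in scramble, 312, 285 and 344 with shco2 and 329, 327 and 349 with shco4. All 9 arrays of each lay over the threshold, although CLDN7 with shco2 came down to 82.4, within the range of the background genes. With a threshold of 100 only CLDN4 and CLDN15 passed, and with 200 only CLDN4.

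CLDN1 and CLDN3 lay near background. CLDN1, a claudin of epidermis and most epithelia, was over the threshold on 0 of 3 scramble arrays (44.6, 33.3 and 32.7), all 3 of shco2 (102, 106 and 70.6) and 1 of shco4 (31.1, 84.4 and 39.6). CLDN3, a sealing claudin, was measured at 2 probe sets: at 203953_s_at scramble read 52.2, 32.8 and 45.6, shco2 57.5, 53.1 and 25.2 and shco4 3.83, 4.26 and 8.85. At 203954_x_at, of a class of probe sets that may also bind related transcripts, scramble read 73.6, 45.3 and 42.1, shco2 74.1, 78.5 and 101 and shco4 6.26, 21.6 and 23.9. CLDN3 was thus over the threshold on 0 of 3 shco4 arrays at either probe set, and on 1 of 3 scramble arrays at each. When the mean of the 9 arrays was used in place of the lowest, CLDN1 and CLDN3 passed as well, making 5 of 15.

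Of the other 10 measured claudins, CLDN5, CLDN8, CLDN10, CLDN14, CLDN16 and CLDN18 were over the threshold on 0 of 9 arrays. CLDN6 and CLDN9 were over it on 2 arrays each, CLDN11 on 3 and CLDN17 on 1, with a highest reading of 60.1, that of CLDN9. CLDN2, CLDN12, CLDN19, CLDN20, CLDN22, CLDN23, CLDN24 and CLDN25 had no probe set of their own here and were not analysed.

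**Figure D1:**
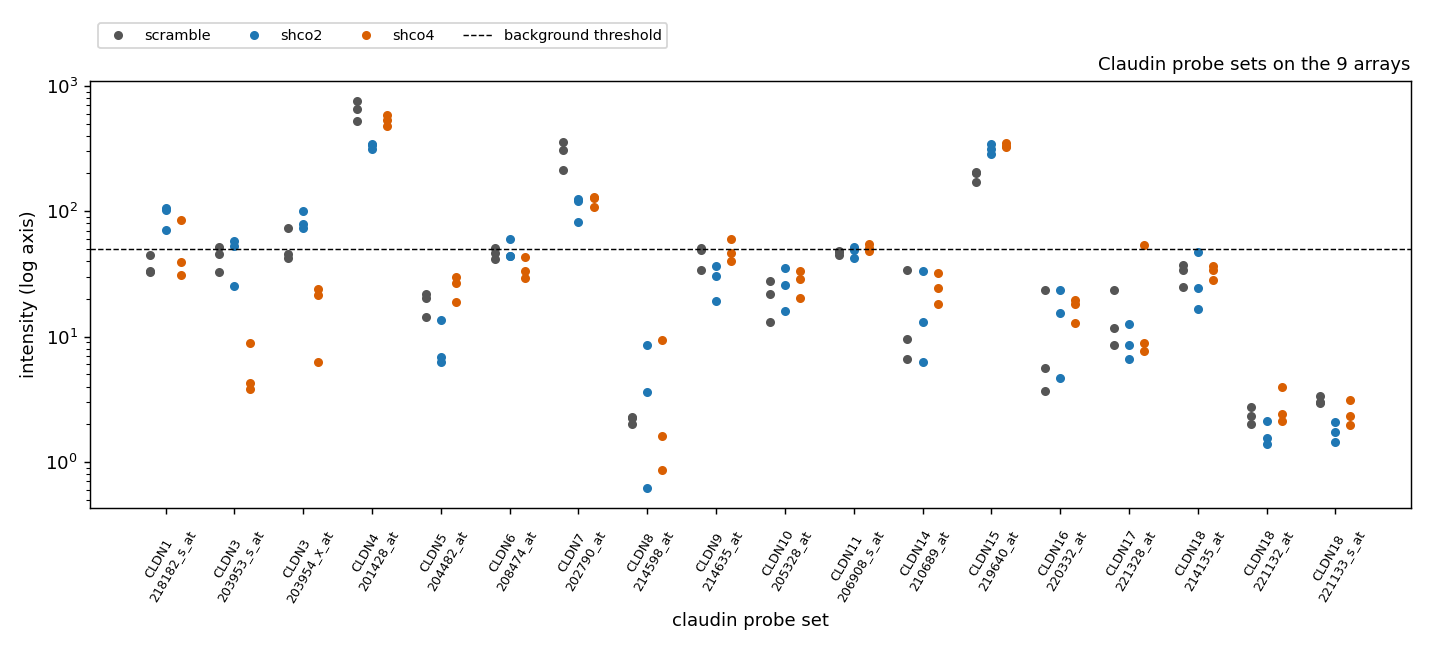
Linear intensity (log axis) of the 18 claudin probe sets on each of the 9 arrays, 1 point per array, with the 3 lines in separate colours; the dashed line is the background threshold of 50.1. CLDN4, CLDN7 and CLDN15 have all 9 points above the line, whereas the CLDN3 points of shco4 lie below it at both probe sets.

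Markers of cell identity were read by the same rule. Of 6 mesenchymal line markers 5 were above background on every array (VIM, FN1, CD44, AXL and CAV1, but not SPARC). Of 12 luminal breast markers 8 were, with KRT8, KRT18 and KRT19 among them and ESR1, FOXA1, TFF1 and TFF3 not. The 3 measured basal markers (KRT5, KRT14 and KRT15) were not, and of 8 fibroblast markers COL1A1 and COL1A2 were. Arrays of 1 line correlated at 0.986 to 0.992 and arrays of different lines at 0.960 to 0.980 (Pearson r of log2 values across probe sets, not independent of one another), and median intensity per array was 122 to 129.6.

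With shco2, CLDN4, CLDN7, JUP and DSG2 fell against scramble, and no member was called higher. On the log2 scale DSG2 fell by 2.00 ± 0.10 (SE, n = 3; 4.00-fold), JUP by 1.42 ± 0.24, CLDN7 by 1.41 ± 0.24 and CLDN4 by 0.95 ± 0.14. Thus 4 of 10 member probe sets were called (limma, Benjamini-Hochberg adjusted p under 0.05 over all probe sets), all lower. Of all 22215 probe sets 20.7% were called, 10.7% higher and 9.95% lower. Of the 7 member probe sets above background on every array 4 were called, against 33.4% of all such probe sets. At an unadjusted limma p under 0.05, 2 of the 10 were higher and 5 lower, beside 3717 higher and 3281 lower of all 22215 probe sets. The members' median log2 difference was -0.26, and that of all probe sets was 0.

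DSG2, the desmosomal cadherin of simple epithelia and many cultured lines, had the intensities 1199, 1035 and 1305 in scramble and 278, 283 and 322 with shco2. The groups did not overlap, and the shco2 arrays varied little among themselves (coefficient of variation 8.26%). The share of all probe sets without overlap was not counted, so a lack of overlap, here and below, does not set a member apart. The mean fell from 1179.9 ± 136 to 294 ± 24.3 (SD, n = 3 each; limma adjusted p = 1.80e-04).

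JUP, a plaque protein shared by desmosomes and adherens junctions, read 492, 375 and 619 in scramble and 152, 226 and 173 with shco2. All 3 shco2 arrays lay below all 3 scramble arrays, with means of 184 ± 37.9 and 495 ± 122 (SD, n = 3 each; limma adjusted p = 0.00861; 2.67-fold lower). DSP, the plaque protein that binds keratin filaments, read 1627, 1583 and 1976 in scramble and 1255, 1393 and 1415 with shco2. Its groups did not overlap either, but the log2 difference of -0.35 ± 0.11 (SE) did not pass (limma adjusted p = 0.0707).

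Among the claudins, the CLDN4 mean fell from 647 ± 116 to 332 ± 15.9 (1.93-fold; limma adjusted p = 0.00532) and the CLDN7 mean from 292 ± 72.5 to 109 ± 23.6 (SD, n = 3 each; 2.65-fold; adjusted p = 0.00824). For both, every shco2 array was below every scramble array. CLDN1 stood the other way: its 3 shco2 arrays were above its 3 scramble arrays, all of which were under the threshold. With scramble put at the threshold the fold was 1.82, and with a floor of 64 the log2 difference was 0.51, so its size is uncertain. The shco2 reading of 70.6 lay within the range of the background genes, which reached 92.9. The CLDN1 difference did not pass (limma adjusted p = 0.0570). It passed without shco4 replicate 1 (0.0449) or 2 (0.0132), which enter the shared estimate of spread, and in the fit of these 2 groups alone (0.0230). CLDN3 differed by -0.01 and 0.69 at its 2 probe sets and did not pass (limma adjusted p = 1 and 0.127), though 203954_x_at passed without scramble replicate 1 (0.0392).

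TJP1, the scaffold that links claudins and occludin to actin, was measured at 2 probe sets. At 202011_at scramble read 1498, 1800.1 and 1709 and shco2 1337, 1577 and 1519.9, and at 214168_s_at scramble read 484, 504 and 467 and shco2 492, 423 and 418. The groups overlapped at both, with log2 differences of -0.17 and -0.13 that did not pass (limma adjusted p = 0.407 and 0.361). In bulk RNA from a culture, fewer cells that carry a message and less message per cell cannot be told apart.

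**Figure D2:**
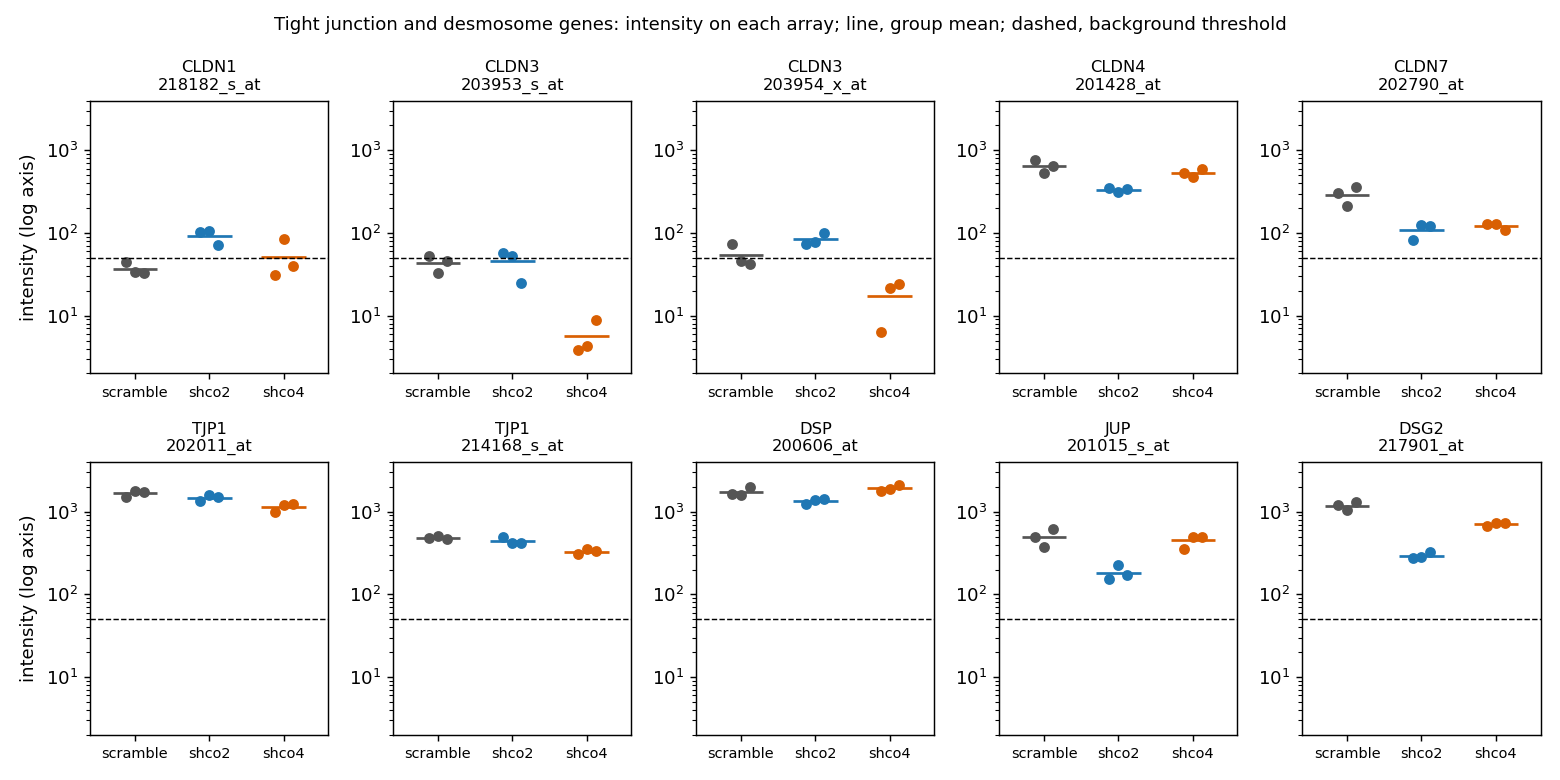
Linear intensity (log axis) of each member probe set on the 9 arrays, 1 point per array, with a line at each group mean and a dashed line at the background threshold of 50.1. The shco2 points of CLDN4, CLDN7, JUP and DSG2 lie below all of their scramble points, and TJP1 is lowest with shco4 at both probe sets.

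With shco4, the members that fell against scramble were partly different: DSG2 by 0.73 ± 0.10, CLDN7 by 1.24 ± 0.24 and TJP1 by 0.54 ± 0.12 and 0.56 ± 0.08 at its 2 probe sets (log2, SE, n = 3), with CLDN3 lower too at intensities near background. JUP, DSP and CLDN4 did not pass, and no member was called higher. In all, 6 of 10 member probe sets, of 4 genes, were called (limma, adjusted p under 0.05), all lower. Of all probe sets 18.8% were called, 9.05% higher and 9.75% lower. Of the 7 member probe sets above background on every array 4 were called, against 30% of all such probe sets. The share called of all probe sets was 12.4% without scramble replicate 2, where the members' count was 5. At an unadjusted limma p under 0.05 the same member counts, 0 higher and 6 lower, were found, beside 3468 higher and 3402 lower of all 22215 probe sets. The members' median log2 difference was -0.55, against 0 for all probe sets, and both comparisons use the same scramble arrays.

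DSG2 read 670.1, 729.6 and 728 with shco4, below all scramble arrays (1.66-fold; limma adjusted p = 0.00433). CLDN7 averaged 121 ± 11.8 with shco4 (SD, n = 3), with every array below every scramble array (2.36-fold; limma adjusted p = 0.0151). The CLDN7 call ended without scramble replicate 1 (adjusted p = 0.0525).

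TJP1 with shco4 read 989.6, 1201 and 1255 at 202011_at and 306, 354 and 331 at 214168_s_at. At both probe sets the shco4 arrays lay below all scramble arrays, and the fold was similar, 1.46 and 1.47 (limma adjusted p = 0.0227 and 0.00537). The call at 202011_at ended without scramble replicate 2 (0.0757) or 3 (0.0675) and in the fit of these 2 groups alone (0.0608). The call at 214168_s_at held with each array left out in turn.

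CLDN3 was called lower at both probe sets (limma adjusted p = 0.0306 and 0.0151), with every shco4 array below every scramble array. Because all 3 shco4 arrays were under the background threshold, as were 2 of 3 scramble arrays at each probe set, only a bound of at least 1.04-fold can be given at 203954_x_at, and no fold at 203953_s_at. With a floor of 64 in place of 16 the differences were 0 and -0.07, and neither passed (adjusted p = 1 each). The call at 203953_s_at was also lost without any 1 of scramble replicates 1 and 3 and the shco4 arrays (adjusted p up to 0.0931, without scramble replicate 1), and that at 203954_x_at in the fit of these 2 groups alone (0.0510).

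JUP read 357, 499 and 491 with shco4, DSP read 1759, 1889 and 2117 and CLDN4 read 536, 477 and 588. Each overlapped its scramble arrays. Their log2 differences were -0.13 ± 0.24, 0.16 ± 0.11 and -0.27 ± 0.14 (SE; limma adjusted p = 0.858, 0.426 and 0.271). CLDN1 differed by 0.37 (adjusted p = 0.623), with shco4 replicate 2 well above the other arrays of its line.

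The hairpins themselves differed at 7 of 10 member probe sets (limma, adjusted p under 0.05), 4 higher and 3 lower with shco4 than with shco2, against 31% of all probe sets (14.9% higher, 16.1% lower). Of the 7 member probe sets above background on every array 5 were called, 4 higher and 1 lower, against 48.7% of all such probe sets. All 3 desmosome genes and CLDN4 were higher with shco4: JUP by 1.29 ± 0.24, DSG2 by 1.27 ± 0.10, CLDN4 by 0.68 ± 0.14 and DSP by 0.50 ± 0.11 (log2, SE, n = 3). TJP1 at 214168_s_at and both CLDN3 probe sets were lower with shco4. The members' median difference was -0.10, against 0 for all probe sets. At the 7 above background on every array it was 0.50, against -0.03 for all such probe sets.

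JUP was 2.45-fold higher with shco4 than with shco2 (limma adjusted p = 0.00765) and DSG2 2.41-fold (2.53e-04). DSP, with means of 1921 ± 181 and 1354 ± 86.6 (SD, n = 3 each), was 1.42-fold higher (limma adjusted p = 0.0132), and CLDN4 1.60-fold (0.0115). For these 4 genes no shco4 array overlapped a shco2 array, but how many of all probe sets did the same was not counted. At DSG2 all 3 pairs of lines passed the test, which held for no other member probe set. Its order from high to low, scramble, shco4, shco2, was also that of the CLDN4, CLDN7 and JUP means.

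CLDN7 had nearly the same level in both hairpin lines, with a difference of 0.17 ± 0.24 (SE; limma adjusted p = 0.708) and overlapping arrays, which does not show that the levels are equal. TJP1 was lower with shco4 at 214168_s_at by 0.43 ± 0.08 (adjusted p = 0.00760), and at 202011_at differed by -0.37, which did not pass (adjusted p = 0.0570). CLDN3 at 203954_x_at was lower with shco4 than with shco2 (limma adjusted p = 0.00161, but 0.0593 with a floor of 64). Its fitted shco2 mean was 1.67-fold the background threshold, under which all 3 shco4 arrays lay. At 203953_s_at the call (adjusted p = 0.0193) was lost with a floor of 64 and without any 1 of shco2 replicates 1 and 2 and the shco4 arrays (up to 0.0649, without shco2 replicate 2). CLDN1 differed by -0.96 (limma adjusted p = 0.117). It passed without shco4 replicate 2 (adjusted p = 0.0115), the single shco4 array above background, so that no size can be given to that difference.

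**Figure D3:**
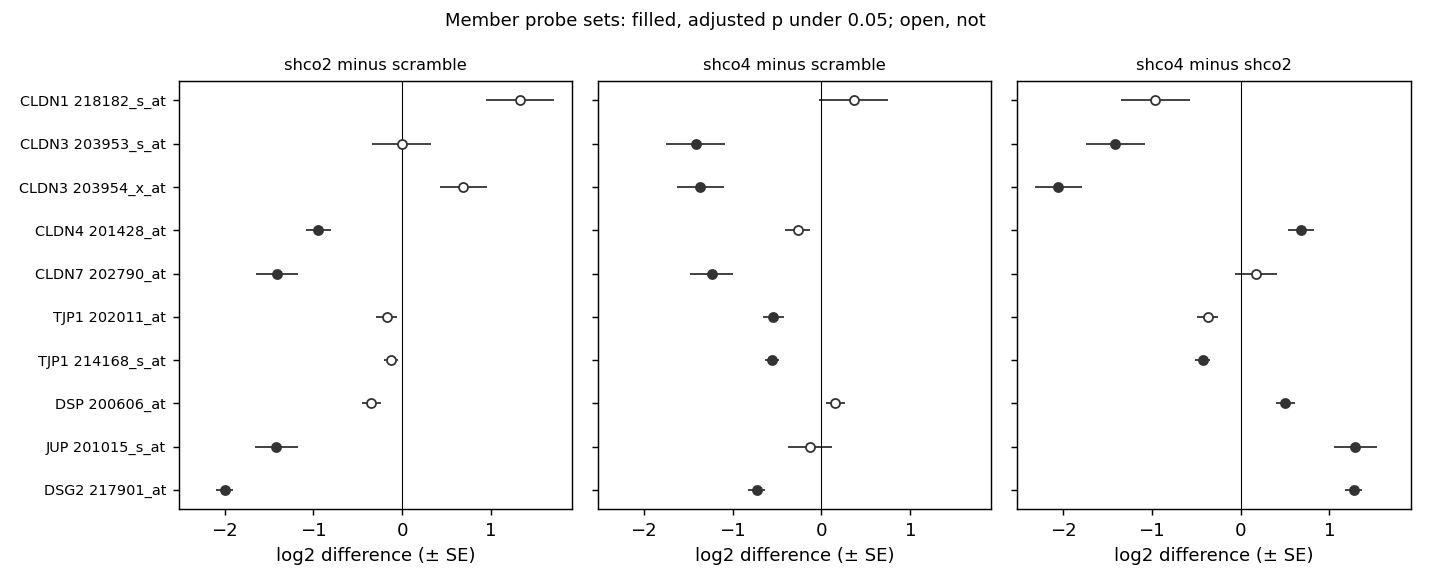
Log2 difference with its SE (x axis) for each member probe set (y axis) in the 3 comparisons; filled points passed an adjusted p under 0.05 and open points did not. DSG2 and CLDN7 are filled and left of 0 with both hairpins, JUP and CLDN4 with shco2, and TJP1 with shco4.

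Of the 12 other claudin and claudin-related genes measured, 10 were not above background on every array, which limits what could be called. Among their 14 probe sets 1 was called with shco2 (higher), 2 with shco4 (1 higher, 1 lower) and 2 between the hairpins, with median log2 differences of 0, 0.09 and 0.10. The shares called were 7.14%, 14.3% and 14.3%, beside 20.7%, 18.8% and 31% of all probe sets. CLDN15 rose with both hairpins, by 0.70 ± 0.09 with shco2 (limma adjusted p = 0.00367) and 0.80 ± 0.09 with shco4 (adjusted p = 0.00279; log2, SE, n = 3), opposite to CLDN7. Every hairpin array of CLDN15 lay above every scramble array. CLDND1, a claudin domain protein outside the claudin family proper, read 3691, 3571 and 3263 in scramble, 3452, 3755 and 3309 with shco2 and 1868, 1459 and 1153 with shco4. It fell with shco4 by 1.26 ± 0.17 (adjusted p = 0.00418) and differed by 0 with shco2. CLDN5, under background on all 9 arrays, was called between the hairpins (adjusted p = 0.0450), a call lost without any 1 of 7 arrays (up to 0.125, without shco4 replicate 1).

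DSG2 was the single desmosomal cadherin above background: of 6 measured, DSC1, DSC2, DSC3, DSG1 and DSG3 were not above it on every array. Of the other plaque and cornified envelope genes, PKP2, PKP3, PKP4, PPL, EVPL and PERP were above background on every array, and PKP1 and CDSN were not. With either hairpin against scramble 0 of 22 probe sets of the 13 other desmosome genes were called (limma), whereas 2 were lower with shco2 and 5 with shco4 at an unadjusted p under 0.05. Of all 22215 probe sets 20.7% and 18.8% were called in these comparisons, and 3281 and 3402 were lower at the unadjusted threshold. Among the 22, the count called with shco4 was 0 to 2 with each array left out, highest without shco2 replicate 1. Between the hairpins 4 were called, 3 of PKP4 and 1 of PKP3, all lower with shco4 (2 to 4 with each array left out in turn). The share called was 18.2%, beside 31% of all probe sets. The PKP4 probe set 214874_at, 1 of those called, was above background on 0 of 9 arrays. A brighter PKP4 probe set, 201929_s_at, was not called (limma adjusted p = 0.0531). PKP4, a plakophilin of desmosomes and adherens junctions, read 827, 797 and 894 in scramble, 948, 996 and 1171 with shco2 and 553, 663 and 749 with shco4, a difference of -0.67 ± 0.13 between the hairpins (adjusted p = 0.00832). Its difference of -0.37 between shco4 and scramble passed once replicate number was a block (limma adjusted p = 0.0303; 0.104 without). PKP3 was lower with shco4 than with shco2 by 0.36 (adjusted p = 0.0420), a call lost without any 1 of 8 arrays (up to 0.115, without shco2 replicate 3), and its other probe set, 209872_s_at, differed by 0.03.

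Of 33 probe sets of the 18 other tight junction genes, 7 were lower and 2 higher with shco2 (with each array left out, 3 to 7 and 0 to 2), 5 lower and 4 higher with shco4 (3 to 5 and 1 to 5), and 7 higher and 3 lower with shco4 than with shco2 (4 to 7 and 3 to 4). The medians were -0.09, 0.07 and 0.11. The shares called were 27.3%, 27.3% and 30.3%, beside 20.7%, 18.8% and 31% of all probe sets and 33.4%, 30% and 48.7% of those above background. OCLN, occludin, was 1.99-fold higher with shco2 (limma adjusted p = 0.0195), where CLDN4 and CLDN7 fell. It was 2.02-fold lower with shco4 than with shco2 (adjusted p = 0.0118), and did not pass between shco4 and scramble. LSR was 1.79-fold higher with shco4 than in scramble (adjusted p = 0.0265) and did not pass with shco2. Whether the OCLN and LSR calls depend on single arrays was not tested. Several of the 18 genes encode the PAR polarity complex, which positions tight junctions. PRKCI, its atypical protein kinase C, fell with both hairpins, by 0.66 ± 0.07 and 0.60 ± 0.07 (limma adjusted p = 0.00154 and 0.00238). PRKCZ, the related kinase, fell with shco4 by 1.07 ± 0.14 (adjusted p = 0.00343). CXADR, a junctional adhesion protein and virus receptor, fell by 0.46 with shco2 (adjusted p = 0.0102) and 0.35 with shco4 (0.0289), the latter lost without any 1 of 5 arrays (up to 0.0830, without shco4 replicate 2).

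PARD3, the scaffold of that complex, disagreed between its 4 probe sets: 221527_s_at read 276, 288 and 284 in scramble and 73.7, 106 and 113 with shco2 and fell by 1.56 ± 0.15 (limma adjusted p = 0.00130), while 221280_s_at was higher by 0.24 with shco2 (adjusted p = 0.0495) and 0.64 with shco4 (0.00180). The remaining 2 differed by 0.10 and 0.01 with shco2 and did not pass. The adaptors PARD6A and PARD6B moved in opposite ways between the hairpins. PARD6A was lower with shco4 than with shco2 by 1.47 ± 0.20 (adjusted p = 0.00216), and PARD6B was higher by 1.14 ± 0.23 (adjusted p = 0.0100). Against scramble, PARD6A fell with shco4 by 0.88 (adjusted p = 0.0284; lost without any 1 of 5 arrays, up to 0.0838, without scramble replicate 1) and PARD6B with shco2 by 0.95 (adjusted p = 0.0303; lost without any 1 of 6, up to 0.0947, without shco2 replicate 2).

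Adherens junctions, the cadherin and catenin contacts beside the tight junction, were read at 19 probe sets of 10 genes, of which 10 were higher and 0 lower with shco4 than with shco2, with a median of 0.57. Those 10 are probe sets of 5 genes (CDH1, CDH11, CTNNA1, CTNNB1 and VCL), so they are not independent of one another. The share called was 52.6%, beside 31% of all probe sets and 48.7% of those above background. The 19 adherens junction probe sets include some that were not above background. Against scramble, 6 were lower with shco2 (3 to 8 with each array left out) and 4 higher with shco4 (3 to 5), with medians of -0.17 and 0.35 and shares called of 31.6% and 21.1%, beside 20.7% and 18.8% of all probe sets. CDH1, E-cadherin, at 201131_s_at read 71.5, 101 and 117 in scramble, 30.5, 57.2 and 28.0 with shco2 and 182, 243 and 211 with shco4. Only 1 of 3 shco2 arrays was above background, so the size of the difference between the hairpins is uncertain; the fitted value was 2.53 ± 0.32 (log2, SE, n = 3; limma adjusted p = 0.00148). Its fall with shco2 (adjusted p = 0.0258) was lost without any 1 of 4 arrays (up to 0.0826, without shco2 replicate 1) and with a floor of 64 (0.104). Its difference from scramble with shco4, 1.15, just missed (limma adjusted p = 0.05002) and passed with the replicate block (0.0384) and without shco2 replicate 2 (0.0206).

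CDH11, a mesenchymal cadherin, was higher with shco4 than with shco2 by 1.77 ± 0.16 (limma adjusted p = 4.31e-04). It fell with shco2 by 1.10 (adjusted p = 0.00478) and rose with shco4 by 0.68 (adjusted p = 0.0301), the latter lost without any 1 of 5 arrays (up to 0.0902, without scramble replicate 2). VCL, vinculin, which links catenins to actin, read 5664, 6052 and 6029.7 in scramble and 1732, 2153 and 2330.2 with shco2, a fall of 1.52 ± 0.12 (adjusted p = 6.01e-04), and differed by 0.04 with shco4. Its dim second probe set, 200930_s_at, differed by -0.17 with shco2 and did not pass (0.919). CTNNA1, alpha-catenin, and CTNNB1, beta-catenin, were higher in the shco4 line than in the shco2 line, by 0.53 and 0.75 (adjusted p = 1.10e-04 and 0.0120). For CTNNA1 the small fall of 0.17 with shco2 (adjusted p = 0.0122) did not pass with median centring (0.140). CTNNB1 did not pass against scramble (-0.39 and 0.35), but did without shco4 replicate 3 (adjusted p = 0.0452 and 0.0349).

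Among 25 probe sets of 17 epithelial regulators and factors of epithelial-mesenchymal transition, 4 were lower with shco2 (2 to 4 with each array left out), 2 higher and 1 lower with shco4, and 5 higher and 1 lower with shco4 than with shco2. The shares called, 16%, 12% and 24%, were below those of all probe sets, 20.7%, 18.8% and 31%. EPCAM, an epithelial adhesion molecule, read 541, 550.0 and 609.9 in scramble, 549, 477 and 506 with shco2 and 229, 219.9 and 242 with shco4, and fell with shco4 by 1.30 ± 0.07 (limma adjusted p = 2.66e-04). SPINT2, an inhibitor of membrane serine proteases, fell with shco2 by 0.40 (adjusted p = 0.0116) and rose with shco4 by 0.60 (0.00331). GRHL2, OVOL1, OVOL2 and ESRP1, which promote epithelial identity, were not above background.

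Of the repressor genes of the SNAI and ZEB families, SNAI2 (SLUG) read 1390.3, 1552 and 1466 in scramble, 819.6, 867 and 795 with shco2 and 1338, 1477 and 1539 with shco4. It fell with shco2 by 0.83 ± 0.07 (limma adjusted p = 6.60e-04), in the line where CLDN4, CLDN7, JUP and DSG2 fell as well. ZEB1 was higher with shco4 than with shco2 by 0.43 (adjusted p = 0.00569) and rose against scramble by 0.36 (0.0197). The latter call was lost without any 1 of 5 arrays (up to 0.0675, without scramble replicate 2). The other 2 ZEB1 probe sets, with log2 differences of 0.63 and 0.19 between shco4 and scramble, did not pass. ZEB2 was under background on all 9 arrays; it was called with shco2 (adjusted p = 0.0476), a call lost without any 1 of 7 arrays (up to 0.131, without scramble replicate 2) and with a floor of 64. ELF3, an epithelial ETS factor, was higher with shco4 than with shco2 by 0.82 (adjusted p = 0.00386); its fall with shco2 (adjusted p = 0.0355) was lost without any 1 of 6 arrays (up to 0.104, without scramble replicate 3). SNAI1 and TWIST1 were not above background on every array.

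The summed intensity of the luminal marker list was 12117 to 12376 with shco2, 18331 to 19705 with shco4 and 21337 to 23982 in scramble. That of the mesenchymal list was 45646 to 48174 with shco2, 71768 to 82888 with shco4 and 73945 to 81308 in scramble. Both sums were lowest with shco2, as CLDN4, JUP and DSG2 were, but a sum is carried by its brightest probe sets. With shco2 6 of 25 luminal probe sets were called lower and 0 higher (24%), and 13 of 21 mesenchymal ones lower and 0 higher (61.9%). Of all probe sets 20.7% were called, and of those above background 33.4%. With shco4 the luminal list had 1 higher and 3 lower (16%). The mesenchymal list had 3 higher and 2 lower (23.8%), beside 18.8% of all probe sets. The part of these markers in the junction results was not tested.

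**Figure D4:**
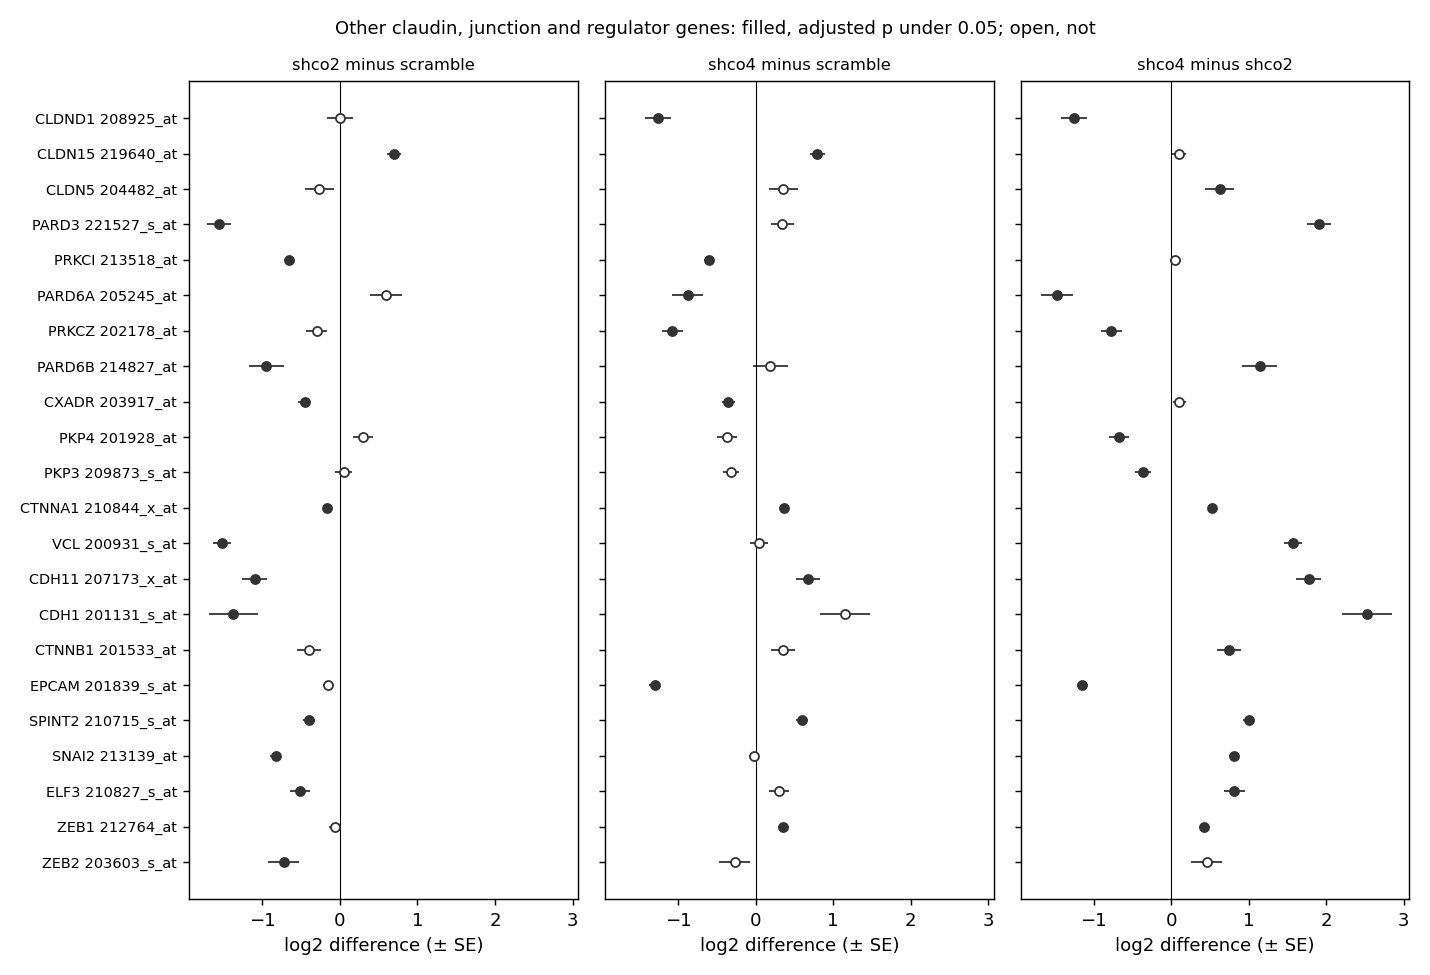
Log2 difference with its SE (x axis) for the named claudin, tight junction, desmosome, adherens junction and regulator genes (y axis, 1 probe set each) in the 3 comparisons; filled points passed an adjusted p under 0.05 and open points did not. CLDN15 lies right of 0 with both hairpins, and CDH1, above background on 1 of 3 shco2 arrays, lies right of 0 between the hairpins.

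Genes with a like pattern were listed for DSG2 and for 203954_x_at of CLDN3, the 2 member probe sets with the widest range of fitted group means. For CLDN3 that range rests on shco4 values under background: the probe set was above background on 4 of 9 arrays, and with a floor of 64 the difference between the hairpins was -0.39. Over the 9 arrays, the genes whose log2 intensity followed DSG2 most closely, with Pearson r in parentheses, were CTDSP2 (0.992), INSIG2 (0.992), BIN1 (0.990), NRP1 (0.990), TGOLN2 (0.989), out of 12190 probe sets ranked. For CLDN3, with the same limit on its values, they were HIRIP3 (0.991), PXMP2 (0.983), GALT (0.982), RFC5 (0.979), KISS1 (0.978). These values describe the 9 arrays, which share 3 lines, so any gene with the same order of the lines scores high. Thus CTDSP2, a phosphatase, averaged 1526 in scramble, 443 with shco2 and 1061 with shco4, the order found for DSG2.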

How the data were processed

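Per the labels, biotin-labelled cRNA was made from 200 ng of total RNA for 1 Affymetrix 3′ array per sample. The deposited values are linear intensities, whose nearly equal trimmed means point to scaling by the authors; the software is not given in the sources used here. A floor of 16 was applied before taking log2. Apart from 62 controls, all 22215 probe sets were tested: 19064 have 1 gene symbol in the platform annotation, 1043 several and 2108 none. limma 3.58.1 (lmFit, then eBayes; R 4.3.3) fitted a mean per line over the 9 arrays, with 3 contrasts, two-sided tests and Benjamini-Hochberg adjustment over all probe sets (prior degrees of freedom 0.53, with 2611 probe sets at the floor throughout). The fit was tested on simulated data. The members and gene lists were chosen with earlier results of these data known. Named genes are all members, claudins above background and up to 6 called genes per list by smallest adjusted p. They also include the 5 genes most like each of 2 members. OCLN and LSR were described in addition and are not counted among the named genes.

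Deviations of same-numbered arrays from their group means correlated at 0.133 to 0.235 between scramble and shco4, over 0.1 in each pair, so the numbers count as pairs there, judged from the data alone. They correlated at 0.0571 to 0.290 between scramble and shco2 and 0.0576 to 0.213 between the hairpins. In both of these, replicate 2 was under 0.1 and replicates 1 and 3 were over it. The main fit used no pairing in any comparison, so its p-values do not take it into account. Alternatives were another floor, quantile normalization, median centring, a filter on dim probe sets, robust variance estimation, a replicate block, 2-group fits and leaving out each array.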

Additional observations from a re-analysis of the deposited data

How the results depend on the processing

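The calls of DSG2 in each comparison and of CLDN4 and JUP with shco2 and between the hairpins kept their direction and stayed called under every alternative run. So did those of CLDN7 with shco2 and of TJP1 at 214168_s_at with shco4. CLDN4 and JUP with shco4 against scramble stayed uncalled, and the JUP log2 difference there ran from -0.31 to 0.05. With each array left out, 4 to 5 member probe sets were called with shco2, 4 to 6 with shco4 and 6 to 7 between the hairpins; all probe sets called with shco4 ranged from 2760 to 3938, lowest without scramble replicate 2, and those of the other lists with shco2 from 10 to 22 (20 with all arrays; 10 to 13 without any 1 of the scramble or shco2 arrays). The cause was not tested. Claudins above background numbered 1 with a threshold of 200 and 5 with the mean of the arrays, by construction. DSP with shco2 passed with quantile normalization (adjusted p = 0.0442) and with the filter on dim probe sets (0.0406), and TJP1 at 202011_at between the hairpins with that filter (0.0300). CLDN1 with shco2 passed with median centring (0.0398) and without the probe sets at the floor (0.0283).

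With the replicate number as a block, 6 member probe sets were called with shco2, 6 with shco4 and 8 between the hairpins, against 4, 6 and 7 without it. Calls over all probe sets rose as well. They were 2805 higher and 2540 lower with shco2 (2379 and 2210 without the block) and 2406 and 2507 with shco4 (2011 and 2167). Between the hairpins they were 3695 and 3886 (3299 and 3582). The block added DSP (adjusted p = 0.0187) and TJP1 at 202011_at (0.0350) with shco2, and TJP1 at 202011_at between the hairpins (0.00314). Among the other named genes it added PKP4 with shco2 (0.0460) and ended the calls of ELF3 and ZEB2 with shco2 (0.0845 and 0.0692) and of PKP3 between the hairpins (0.0573). Beyond these and the PKP4 and CDH1 values in the report, it changed no other call among the named genes. Intensities near 50.1 limit what can be said of CLDN1 and CLDN3.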
